A study of Mus musculus with 90 samples.

Results

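Heat shock factors and chaperones were followed in individual mouse oocytes (MII) and embryos (2c, 8c), either WT or matPlag1KO. The set holds 10 genes, chosen by symbol: Hsf1, Hsf2, Hspa1a, Hspa1b, Hspa8, Hspa2, Hspa5, Hspd1, Hspe1 and Hsp90aa1. All 10 were found among the 24422 genes of the count table, and all 10 were among the 16511 genes that reached 1 CPM (the count scaled to a library of standard size) in 5 or more kept libraries. In the mm9 annotation of the count table, the 4 genes that differed between genotypes lie at chr12:77505163-77507923 (Hspa2), chr2:34627610-34632049 (Hspa5), chr1:55134678-55144776 (Hspd1) and chr1:55144992-55148161 (Hspe1), each interval covering the whole gene. The mice were of the CD-1 strain. WT oocytes and embryos came from WT females, and the oocytes called matPlag1KO came from females with both Plag1 alleles deleted. The matPlag1KO embryos had a knockout mother and a WT father, so that they were heterozygous and lacked only the maternal allele. All females were superovulated, and embryos were cultured from the zygote. Oocytes were collected 21 to 23 h after hCG, and embryos 45 to 47 h (2c) and 71 to 73 h (8c) after fertilization. The labels do not tell which female gave which embryo, and a female may have given several to a group, so p-values measure the spread between oocytes or embryos.

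Heat shock proteins are chaperones that hold, fold or disaggregate other proteins. Hsf1 and Hsf2 encode transcription factors that bind heat shock elements in the promoters of chaperone genes, and maternal Hsf1 is known for its role in oocyte maturation and early cleavage. Hspa1a and Hspa1b encode the inducible HSP70 proteins, known in the mouse as early transcripts of the newly activated embryonic genome. Hspa8 encodes the constitutive HSP70 of the cytosol, Hspa2 an HSP70 best known from spermatogenic cells, and Hspa5 the HSP70 of the endoplasmic reticulum (BiP). Hspd1 and Hspe1 encode the mitochondrial chaperonin and its co-chaperonin, and Hsp90aa1 encodes the stress-inducible cytosolic HSP90.

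The promoters show which of these genes carry the motifs of the heat shock and endoplasmic reticulum stress responses. RefSeq promoters on GRCm38.p6 were matched for 7 of the 10 genes (8 promoters, with a pair for Hspd1). Hsf1, Hspa8 and Hsp90aa1 were not matched. Pairs of heat shock units were searched as GAANNTTC and TTCNNGAA and triplets as GAANNTTCNNGAA and TTCNNGAANNTTC, in the 250 bases before the start, on both strands. Triplets overlap the pairs they contain. The 4 sequences below are shown because they carry such a motif, in capitals, and belong to the gene pairs or the gene that the results turn on. Each is read from 5′ to 3′ towards the start site of the gene named last, on the minus strand for Hspa1a and Hspa1b and on the plus strand for the others.
Hspa1a (chr17:34972157-34972406): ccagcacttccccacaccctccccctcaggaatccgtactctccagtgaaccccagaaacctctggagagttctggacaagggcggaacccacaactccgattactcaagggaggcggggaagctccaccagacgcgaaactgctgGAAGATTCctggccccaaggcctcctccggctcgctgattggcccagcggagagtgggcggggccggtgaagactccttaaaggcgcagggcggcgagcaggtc
Hspa1b (chr17:34959239-34959488): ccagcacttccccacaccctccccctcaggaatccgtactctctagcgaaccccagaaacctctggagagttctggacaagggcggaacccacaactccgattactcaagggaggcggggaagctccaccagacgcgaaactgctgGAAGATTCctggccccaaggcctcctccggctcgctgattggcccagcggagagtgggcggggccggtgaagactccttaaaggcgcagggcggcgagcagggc
Between Hspd1 and Hspe1 (chr1:55087933-55088147): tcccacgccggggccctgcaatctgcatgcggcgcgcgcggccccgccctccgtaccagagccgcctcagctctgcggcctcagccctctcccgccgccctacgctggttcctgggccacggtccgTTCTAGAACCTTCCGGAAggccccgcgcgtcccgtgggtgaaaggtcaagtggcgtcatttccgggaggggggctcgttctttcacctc
Hspa5 (chr2:34771840-34772089): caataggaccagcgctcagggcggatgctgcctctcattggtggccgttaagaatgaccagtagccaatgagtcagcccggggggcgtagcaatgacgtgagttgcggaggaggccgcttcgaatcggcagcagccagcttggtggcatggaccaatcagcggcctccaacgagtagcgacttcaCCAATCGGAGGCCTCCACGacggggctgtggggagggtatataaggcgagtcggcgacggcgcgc
Hspa1a and Hspa1b shared 247 of the 250 bases, and each held 1 GAANNTTC match that began 104 bases before its start. GAANNTTC was present in 6.69% and TTCNNGAA in 7.17% of all 32851 promoters of that length. Of the pair of Hspd1 promoters, 1 held no match to any motif searched. From the start of the other, Hspd1 and Hspe1 lie 215 bases apart on opposite strands. The stretch between them held a run of heat shock units from base 127 to base 144. Triplets, of which it held 2 that overlap, were present in 0.466% of promoters. The promoter of Hspa5 held none of the heat shock searches but 1 match to the endoplasmic reticulum stress element, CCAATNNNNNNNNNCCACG, 65 bases before the start, as did 0.113% of promoters. Hsf2 and Hspa2 held no match in this window.

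Counts were compared between genotypes on the CPM scale, with TMM factors, and between stages on a spike-in scale, in which each count is multiplied by 10185.5 and divided by the ERCC spike-in total of its library. A spike-in-scaled level is therefore per oocyte or embryo, and the number of cells and the RNA per cell cannot be told apart. The labels name 2 sets of libraries, libA and libB, called plates A and B here. Each held all 6 groups. The paper describes these sets as separately prepared, and reports several collection occasions, which the labels do not name. After 12 of 90 libraries with a median CPM under 1 were left out, 16 WT and 14 matPlag1KO oocytes, 11 and 11 2c embryos, and 15 and 11 8c embryos remained. Median gene counts per library lay between 148473 (WT 2c) and 649899 (matPlag1KO MII). Plag1, the targeted gene, was counted in 16 of 16 WT oocytes and 3 of 14 from knockout females, but in 1 of 11 WT 2c embryos and 9 of 11 2c embryos labelled matPlag1KO. This order is opposite to that of the oocytes, so these 2c embryos are called by their label. By the design their only intact Plag1 allele is the WT paternal one. Its part in their Plag1 counts was not tested. Marker genes of cumulus and granulosa cells summed to at most 47.3 CPM in any oocyte, with Amh, Tnfaip6, Ptx3, Foxl2 and Ptgs2 at 0 in both groups of oocytes, against at least 4192 CPM for 8 oocyte genes. The 2-cell markers summed to 88.5 to 1125 CPM in WT 2c embryos and 215 to 718 CPM in those labelled matPlag1KO, and to at most 11.6 CPM in any oocyte or 8c embryo, with Zscan4f, Tcstv1 and Tcstv3 at 0 in all groups.

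**Figure D1:**
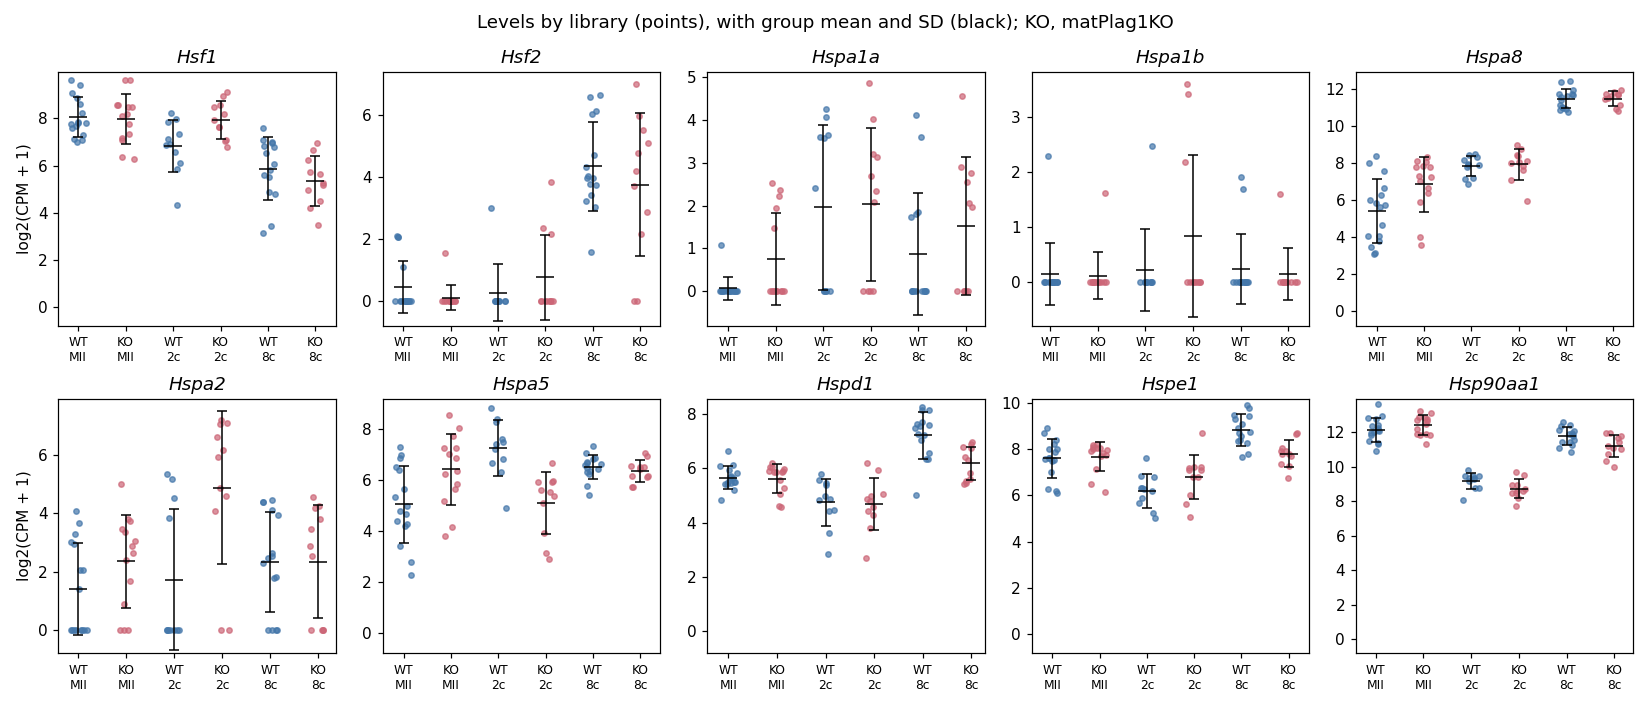
Level of each gene as log2(CPM + 1) on the vertical axis in every kept library (points), by genotype and stage on the horizontal axis (KO, matPlag1KO), with the group mean and SD in black. Hspa8 stands apart at 8c, Hsf2 has counts mainly at 8c, and Hspa1a and Hspa1b are at or near 0 in most libraries.

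The stages were compared first, to show how the chaperone transcripts changed between the oocyte and the embryo. In WT, 4 of the 10 genes were lower at 2c than at MII (Hsf1, Hspd1, Hspe1 and Hsp90aa1) and 1 was higher (Hspa1a). A gene was called where its adjusted p (edgeR, quasi-likelihood) was under 0.05. Of all tested genes, 51.3% were lower and 14.1% higher, so that the share of falling genes was not above the background. From 2c to 8c in WT, 5 were higher (Hsf2, Hspa8, Hspd1, Hspe1 and Hsp90aa1) and 0 lower, against 31.9% and 16.2% of tested genes. In matPlag1KO, 6 were lower (Hsf1, Hspa8, Hspa5, Hspd1, Hspe1 and Hsp90aa1) and 0 higher from MII to 2c, against 50.3% and 13.5% of tested genes. From 2c to 8c in matPlag1KO, 6 were higher (Hsf2, Hspa8, Hspa5, Hspd1, Hspe1 and Hsp90aa1) and 2 lower (Hsf1 and Hspa2), against 29.1% and 19.5%. Over all tested genes, the median change from MII to 2c in WT was -1.46 (log2) on the spike-in scale and -0.03 with TMM. On both scales the 4 genes that fell in WT fell, and the 5 genes that rose from 2c to 8c in WT rose.

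**Figure D2:**
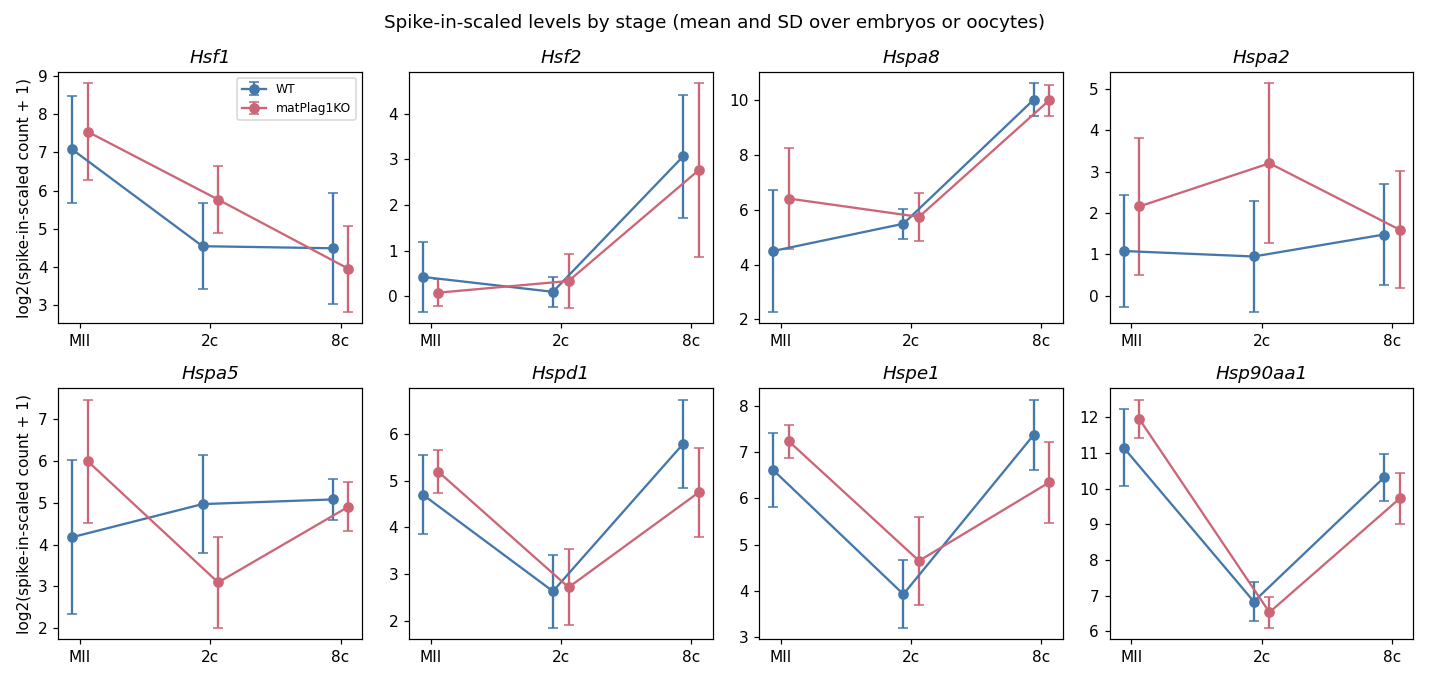
Mean and SD of log2(spike-in-scaled count + 1) on the vertical axis for 8 of the genes in WT and matPlag1KO libraries, by stage on the horizontal axis. Hsp90aa1, Hspd1 and Hspe1 dip at 2c in both genotypes, Hspa8 and Hsf2 are highest at 8c, and Hspa5 dips at 2c in the matPlag1KO group.

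Hsp90aa1 had the largest fall of the 10 genes from MII to 2c in either genotype. Its spike-in-scaled level ranged from 436 to 5779 (median 2020) in WT oocytes and from 47.3 to 194 (median 115) in WT 2c embryos. These groups did not overlap. How many of all tested genes had no overlap between stages was not counted, here or for the genes below. At 8c it was back at 452 to 2327 (median 1349), all above the 2c embryos. The log2 fold changes in WT were -4.58 (SE 0.35, adjusted p = 3.6e-20) from MII to 2c and 3.53 (SE 0.33, adjusted p = 1.68e-15) from 2c to 8c. Only 4.1% of tested genes had a lower log2 fold change from MII to 2c. In matPlag1KO the medians were 4436, 96.5 and 916, and the log2 fold changes -5.46 (SE 0.37) and 3.29 (SE 0.34). In the order of the 6 group levels, only the step from matPlag1KO 8c down to WT 2c exceeded the larger SD of the neighbours on the spike-in scale.

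Hspa8, the constitutive HSP70, rose from 2c to 8c. WT 2c embryos ranged from 24.1 to 76.9 spike-in-scaled counts (median 43.0) and WT 8c embryos from 518 to 2206 (median 1056). These ranges did not overlap, without a count of such genes among all tested. The log2 fold change was 4.58 (SE 0.61, adjusted p = 7.85e-10) in WT and 4.16 (SE 0.61, adjusted p = 1.47e-08) in matPlag1KO, and 97.3% and 96.3% of tested genes had a lower one. Both plates gave the rise in WT, with log2 fold changes of 4.89 (A) and 4.50 (B). In CPM, Hspa8 was 3027 ± 1191 (SD, n = 15) at 8c in WT and 2921 ± 706 (SD, n = 11) at 8c in matPlag1KO, and the difference was -0.05 on the log2 scale, with a 95% interval of -0.77 to 0.67.

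In WT oocytes the level of Hspa8 differed between the plates. It ranged from 1.70 to 581 spike-in-scaled counts, with a mean of 141 ± 196 (SD, n = 8) on plate A and 8.57 ± 5.48 (SD, n = 8) on plate B. Other genes differed too in WT oocytes (plate A against B): Hsp90aa1 4198 ± 1665 against 1536 ± 391 and Hspa5 49.5 ± 34.1 against 15.5 ± 20.1. Hspe1 was close, at 110 ± 46.0 against 105 ± 36.8. In matPlag1KO oocytes Hspa8 was 180 ± 86.2 and 104 ± 156 (SD, n = 7 each). The log2 fold change of Hspa8 from MII to 2c in WT was -0.68 (SE 0.51, adjusted p = 0.23) over both plates. It was -2.10 (adjusted p = 0.012) on plate A alone and 2.66 (adjusted p = 3.97e-05) on plate B alone, so the direction was not the same in the plates. The median over all tested genes also differed, at -2.17 on plate A and -0.67 on plate B. The fall of Hspa8 on plate A was thus near the median of that plate. With TMM the change of Hspa8 in WT was 1.55 (adjusted p = 0.000191). In matPlag1KO the fall of -1.20 (SE 0.52, adjusted p = 0.0387) was 0.79 with TMM (adjusted p = 0.0701), -1.58 on plate A and -0.73 on plate B (adjusted p = 0.239). The medians over all tested genes there were -1.62 on plate A and -1.46 on plate B.

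**Figure D3:**
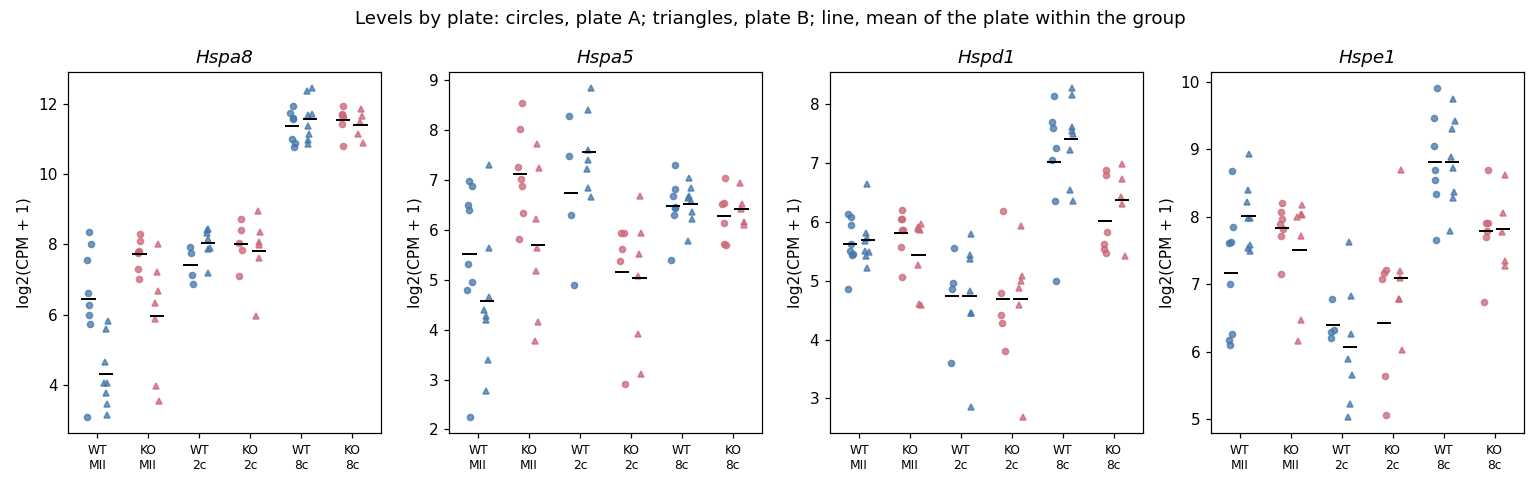
Level as log2(CPM + 1) on the vertical axis of Hspa8, Hspa5, Hspd1 and Hspe1 in every kept library, by genotype and stage on the horizontal axis (KO, matPlag1KO), with circles for plate A, triangles for plate B and a line at the mean of each plate within a group. WT oocytes of plate B are low for Hspa8, whereas the lower levels of Hspa5 at 2c and of Hspd1 and Hspe1 at 8c in the matPlag1KO group are seen in both plates.

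The heat shock factors had opposite profiles. Hsf1 ranged from 39.5 to 1808 spike-in-scaled counts (median 113) in WT oocytes, from 3.65 to 61.6 (median 20.7) in WT 2c embryos and from 1.92 to 87.3 (median 24.9) in WT 8c embryos. It fell by 3.15 on the log2 scale (SE 0.55, adjusted p = 8.45e-07) from MII to 2c and differed by 0.13 (SE 0.50, adjusted p = 0.861) from 2c to 8c, the latter being -0.85 with TMM (adjusted p = 0.0481). In matPlag1KO it fell at both steps, with log2 fold changes of -2.20 (SE 0.53) and -1.68 (SE 0.55, adjusted p = 0.0081). With TMM the first of these was -0.18 (adjusted p = 0.715).

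Hsf2 was hardly seen before 8c. It had 10 counts in 16 WT oocytes, 1 in 14 matPlag1KO oocytes, 1 in 11 WT 2c embryos and 4 in 11 2c embryos labelled matPlag1KO. At 8c it had 197 counts, with a count in 15 of 15 WT embryos, and 124 counts, with a count in 9 of 11 matPlag1KO embryos. The spike-in-scaled ratio of summed counts between 2c and 8c was 119 in WT and 31.7 in matPlag1KO, with counting intervals (95%, exact) of 21.1 to 4730 and 12.1 to 118. In edgeR the adjusted p was 1.76e-08 in WT and 8.03e-07 in matPlag1KO. WT 8c embryos varied from 1.97 to 99.0 CPM (median 14.9).

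Hspa1a and Hspa1b, whose promoters are shown above, had few counts at any stage. Hspa1a summed to 3, 14 and 13 counts at MII, 2c and 8c in WT, and to 15, 16 and 20 counts at the same stages in matPlag1KO. Hspa1b summed to 1 to 7 counts per group. The transcripts of this gene pair share sequence: 59.4% of the windows of 50 bases of Hspa1a occur in Hspa1b. That share is over whole transcripts, whereas the libraries hold 5′ ends, for which it was not counted. Counting could have split or dropped reads, and the values of both genes are uncertain. The rise of Hspa1a in WT from MII to 2c (adjusted p = 0.0118) rested on 14 counts in 6 of 11 embryos against 3 counts in 1 of 16 oocytes, a spike-in-scaled ratio of 7.21 with a counting interval of 2.01 to 39.1. Its adjusted p was 0.0638 in DESeq2, 0.266 on plate A alone and 0.0107 on plate B alone. With the counts of both genes added, the log2 fold change was 1.88 (SE 0.81, adjusted p = 0.0368).

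The mitochondrial pair Hspd1 and Hspe1 both fell by 2c and rose by 8c. In WT, Hspd1 ranged from 11.1 to 96.1 spike-in-scaled counts (median 21.6) in oocytes, from 1.22 to 11.8 (median 5.75) at 2c and from 11.4 to 118 (median 61.4) at 8c. Hspe1 ranged from 17.01 to 161 (median 112) in oocytes, from 6.70 to 42.3 (median 15.8) at 2c and from 54.8 to 368 (median 152) at 8c. WT 2c and 8c embryos did not overlap for Hspe1 and overlapped narrowly for Hspd1, again without a count among all tested genes. Hspd1 fell by 2.31 (SE 0.39) and rose by 3.40 (SE 0.41) on the log2 scale, and Hspe1 fell by 2.72 (SE 0.36) and rose by 3.51 (SE 0.37). The adjusted p was at most 4.29e-07 for these 4 changes. In matPlag1KO Hspd1 fell by 2.50 (SE 0.40) and rose by 2.26 (SE 0.41), and Hspe1 fell by 2.32 (SE 0.35) and rose by 1.63 (SE 0.36). Over the 78 libraries their log2(CPM + 1) values had a Pearson r of 0.746 and a Spearman rho of 0.748, as a description across libraries that share stage and depth. Hspe1 ranked 5 among 10839 genes by its likeness to Hspd1.

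Hspa5 and Hspa2 had no stage change in WT that passed the test over both plates. Hspa5 ranged from 0.851 to 88.4 spike-in-scaled counts (median 18.6) in WT oocytes, from 5.14 to 124 (median 31.7) at 2c and from 18.1 to 58.0 (median 33.0) at 8c. From MII to 2c in WT the log2 fold change was 0.31 (SE 0.45), with -0.81 on plate A (adjusted p = 0.294) and 1.60 on plate B (adjusted p = 0.0157). The medians over all tested genes were -2.17 on plate A and -0.67 on plate B. With TMM Hspa5 was higher at 2c than at MII in WT, by 1.90 on the log2 scale (adjusted p = 1.15e-05), and lower at 8c than at 2c, by -1.03 (adjusted p = 0.0175). In matPlag1KO it fell by 3.23 (SE 0.52, adjusted p = 1.28e-07) from MII to 2c and rose by 1.69 (SE 0.51, adjusted p = 0.00438) to 8c. The rise had an adjusted p of 0.0612 with TMM. Hspa2 was low in WT, with counts in 8 of 16 oocytes, 4 of 11 2c embryos and 11 of 15 8c embryos. In matPlag1KO it fell by 2.09 (SE 0.81, adjusted p = 0.0261) from 2c to 8c, which neither plate alone gave (adjusted p = 0.248 and 0.0612).

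Between neighbours in the order of the 6 group levels, 6 steps exceeded the larger SD on the spike-in scale, 1 each for Hsf1, Hsf2, Hspa8, Hspd1, Hspe1 and Hsp90aa1. For Hsf2 and Hspa8 it lay below the 8c groups, for Hspd1, Hspe1 and Hsp90aa1 above the 2c groups, and for Hsf1 between the 2c groups. No step did so for Hspa1a, Hspa1b, Hspa2 or Hspa5. The steps depended on the scale. In CPM the step of Hsf1 between the 2c groups was under the larger SD (1.11 against 1.12). Hspa5 had a step above it between matPlag1KO 8c and 2c (1.25 against 1.23). Hspd1 (1.04 against 0.86) and Hspe1 (1.01 against 0.67) had a step between WT and matPlag1KO 8c.

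The genotypes were then compared at each stage. At MII, 0 of the 10 genes passed the test, against 0.309% of tested genes called higher and 0.472% called lower, by edgeR's quasi-likelihood test. DESeq2 also called 0 of them. Of the 10 genes, 4 had an unadjusted p under 0.05, namely Hsf2 (0.0137), Hspa1a (0.0122), Hspa8 (0.00561) and Hspa5 (0.000604), chosen here after their values were seen, as had 1690 of the 16511 tested genes. At 2c, 1 was higher (Hspa2) and 1 lower (Hspa5) in the embryos labelled matPlag1KO, against 2.3% and 2.62% of tested genes. At 8c, 0 were higher and 2 lower (Hspd1 and Hspe1), against 1.21% and 0.527%. Genotype ranges overlapped for every gene at every stage.

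**Figure D4:**
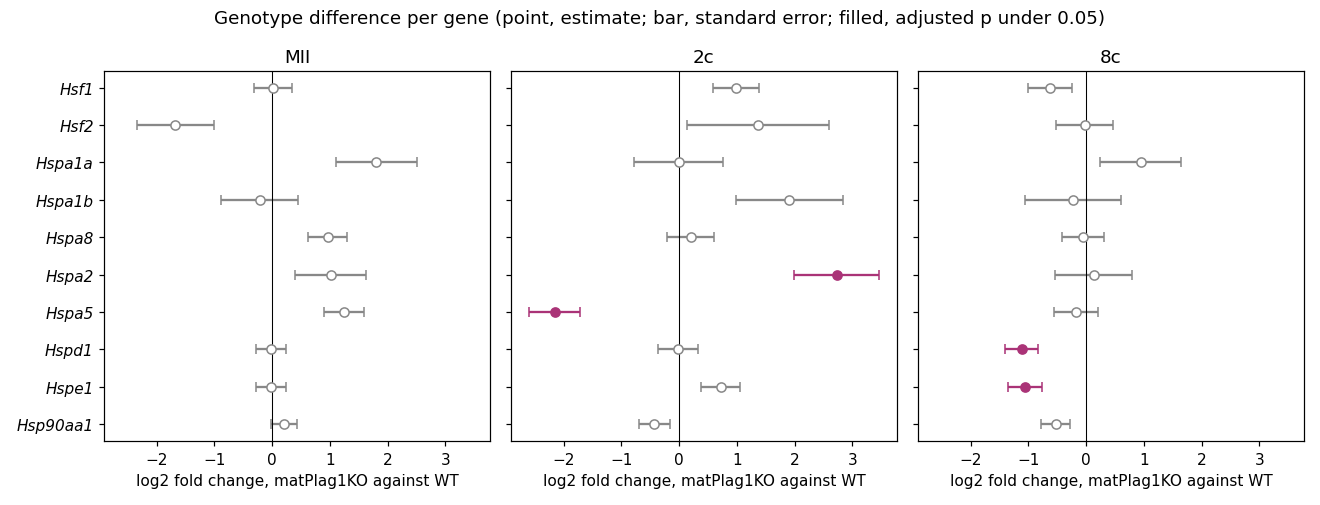
Log2 fold change of matPlag1KO against WT on the horizontal axis for each gene (vertical axis) at MII, 2c and 8c, with the standard error as a bar and filled points for an adjusted p under 0.05. Hspa2 and Hspa5 are filled at 2c, on opposite sides of 0, and Hspd1 and Hspe1 at 8c, both below 0.

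Hspa5, the chaperone of the endoplasmic reticulum, was lower at 2c. It ranged from 28.7 to 457 CPM (median 169) in WT 2c embryos and from 6.50 to 101 CPM (median 45.1) in those labelled matPlag1KO. None of the latter 11 was above the WT median. The means were 192 ± 128 (SD, n = 11) and 43.3 ± 28.01 (SD, n = 11) CPM, from 401 and 98 counts in all. The log2 fold change was -2.16 (SE 0.44, adjusted p = 0.00178), a 4.46-fold lower level, and 2.6% of tested genes had a lower one. On plate A alone it was -1.91 (SE 0.65, adjusted p = 0.476, with 0 genes called on that plate) and on plate B alone -2.34 (SE 0.55, adjusted p = 0.0088). Leaving out any 1 of the 22 2c embryos kept the call, with log2 fold changes from -2.39 to -1.94.

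In oocytes the difference of Hspa5 did not pass the test. WT oocytes ranged from 3.78 to 156 CPM (median 28.4) and matPlag1KO oocytes from 12.8 to 374 CPM (median 98.1). The log2 fold change was 1.24 (SE 0.35, adjusted p = 0.0616), and it was 1.40 on plate A and 1.00 on plate B. Wells were also entered as a replicate block, along with a term for plate. This fit held the 28 oocytes whose well position had opposite genotypes on plates A and B. In it the log2 fold change of Hspa5 was 1.08 (SE 0.19, adjusted p = 4.55e-06). In the same fit Hspa8 was 1.47 higher on the log2 scale (SE 0.22, adjusted p = 3.79e-08), against 0.96 (SE 0.34, adjusted p = 0.201) without the block in all oocytes. Without the block the same 28 oocytes gave 1.09 (adjusted p = 0.457) for Hspa5 and 1.33 (adjusted p = 0.213) for Hspa8. Over all 12978 genes tested the block raised the calls from 34 to 792, or 6.1%. Whether the wells pair the oocytes depended on how that was checked. On plate A alone Hspa8 was 0.71 higher (adjusted p = 0.45) and on plate B alone 2.04 higher (adjusted p = 0.00151). At 8c Hspa5 was 94.0 ± 28.8 (SD, n = 15) and 83.6 ± 25.7 (SD, n = 11) CPM, a difference of -0.17 on the log2 scale (95% interval -0.94 to 0.59).

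The genotype difference of Hspa5 was itself different between stages. The difference at 2c was lower than that at MII by -3.40 on the log2 scale (SE 0.57, adjusted p = 3.27e-05), and lower than that at 8c by -1.98 (SE 0.58, adjusted p = 0.0434). The latter call was lost with all libraries kept (adjusted p = 0.103), with spike-in scaling (0.146) and with median-ratio scaling (0.0546). These comparisons share the 2c embryos. Of all tested genes, 1.62% and 1.68% were called higher and lower for 2c against MII, and 1.17% and 1.13% for 2c against 8c. Of the 10 genes 1 was called in the former, and 2 in the latter, with Hspe1 as the other.

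Hspa2 was higher at 2c in the embryos labelled matPlag1KO. It had counts in 9 of these 11 embryos, with a range of 0 to 148 CPM (median 60.0), and in 4 of 11 WT embryos, with a range of 0 to 40.2 CPM (median 0). Of the former, 9 of 11 were above the WT median. The counts summed to 168 and 19, and the log2 fold change was 2.73 (SE 0.73, adjusted p = 0.0183). It was 2.36 on plate A (adjusted p = 0.569) and 2.93 on plate B (adjusted p = 0.0283), and all 22 fits without 1 embryo kept the call. With spike-in scaling the adjusted p was 0.0503. Of 8 oocyte markers, 1 (Bmp15) was higher in the same 2c embryos (1.83, adjusted p = 0.011) and 7 were not called. The median of the 8 was 0.25 against 0.12 for all tested genes, of which 2.3% were called higher. No 2-cell marker, 8-cell marker or immediate early gene was called there. The part of Bmp15 in the levels of Hspa2 and Hspa5 was not tested. The difference of Hspa2 was 1.01 (SE 0.61) at MII and 0.13 (SE 0.67) at 8c, and the test of the difference from 2c did not pass (adjusted p = 0.369 and 0.139).

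Hspd1 and Hspe1 were lower at 8c in matPlag1KO. Hspd1 ranged from 31.0 to 307 CPM (median 180) in WT and from 41.6 to 125 CPM (median 78.0) in matPlag1KO 8c embryos, and Hspe1 from 201 to 959 CPM (median 422) and from 106 to 412 CPM (median 221). For each gene 0 of 11 matPlag1KO embryos were above the WT median. The log2 fold changes were -1.12 (SE 0.29, adjusted p = 0.0228) and -1.06 (SE 0.30, adjusted p = 0.0423), or 2.17-fold and 2.08-fold lower levels. For Hspd1 they were -1.16 and -1.08 on plates A and B, and for Hspe1 -1.11 and -1.03, with no call on either plate alone (adjusted p from 0.299 to 0.442). Hspd1 was called in all 26 fits that left out 1 embryo, and Hspe1 in 11 of 26. With spike-in scaling neither passed (adjusted p = 0.185 and 0.167). In oocytes the 95% intervals of the difference were -0.53 to 0.50 and -0.55 to 0.51 on the log2 scale.

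At 2c Hspd1 differed by -0.02 (SE 0.35) and Hspe1 by 0.72 (SE 0.33, adjusted p = 0.189). The genotype difference of Hspe1 was higher at 2c than at 8c by 1.77 (SE 0.44, adjusted p = 0.0182), and that of Hspd1 by 1.09 (SE 0.45, adjusted p = 0.171). Of 8 genes known from 8c embryos, 3 were lower in the same matPlag1KO 8c embryos and 5 were not called. The 3 were Krt8, Krt18 and Cdx2, with log2 fold changes of -1.91 for both keratins. Of all tested genes 1.21% were higher and 0.527% lower. The median log2 fold change of the 8 was -0.73, against 0 for all tested genes. The 8 together summed to 6390 to 14210 CPM in WT and 5780 to 12400 CPM in matPlag1KO. Of 8 oocyte markers Oog1 was higher (1.35) and Zp1 lower (-2.36) in these embryos, and of 10 immediate early genes Junb was higher (3.68) and Dusp1 lower (-3.66). The part of these genes in the levels of Hspd1 and Hspe1 was not tested.

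The other genes had no genotype difference that passed the test. Hsf1 at 2c was 141 ± 86.8 (SD, n = 11) CPM in WT and 279 ± 149 (SD, n = 11) CPM in the embryos labelled matPlag1KO, with 10 of the latter 11 above the WT median. The log2 fold change was 0.98 (SE 0.40, adjusted p = 0.129), and DESeq2 called it (1.22, adjusted p = 0.0302), as it did Hspe1 at 2c (0.90, adjusted p = 0.0458). Hsp90aa1 at 8c was 3681 ± 1254 (SD, n = 15) CPM in WT and 2551 ± 1023 (SD, n = 11) CPM in matPlag1KO, a difference of -0.53 (SE 0.25, adjusted p = 0.303).

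Other chaperone genes were counted in the same comparisons. Of 126 such genes in 9 lists, 116 were tested. Between MII and 2c in WT, 70 were lower and 15 higher, and between 2c and 8c 58 were higher and 10 lower, with median log2 fold changes of -1.66 and 1.19 against -1.46 and 0.53 for all tested genes. In matPlag1KO 75 were lower and 16 higher (50.3% and 13.5% of tested genes), with a median of -1.99 against -1.42 for all tested genes. Then 49 were higher and 15 lower (29.1% and 19.5% of tested genes), with a median of 0.86 against 0.30. Among those that fell in WT by 2c were Atf6, a sensor of the unfolded protein response, by 4.78, and Dnajb4, a J domain partner of HSP70, by 4.68 on the log2 scale. Those that rose by 2c included Dnajb14 (6.73) and Dnajb9 (5.36), J domain proteins of the endoplasmic reticulum, and Bag3 (5.68), a nucleotide exchange factor of HSP70.

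**Figure D5:**
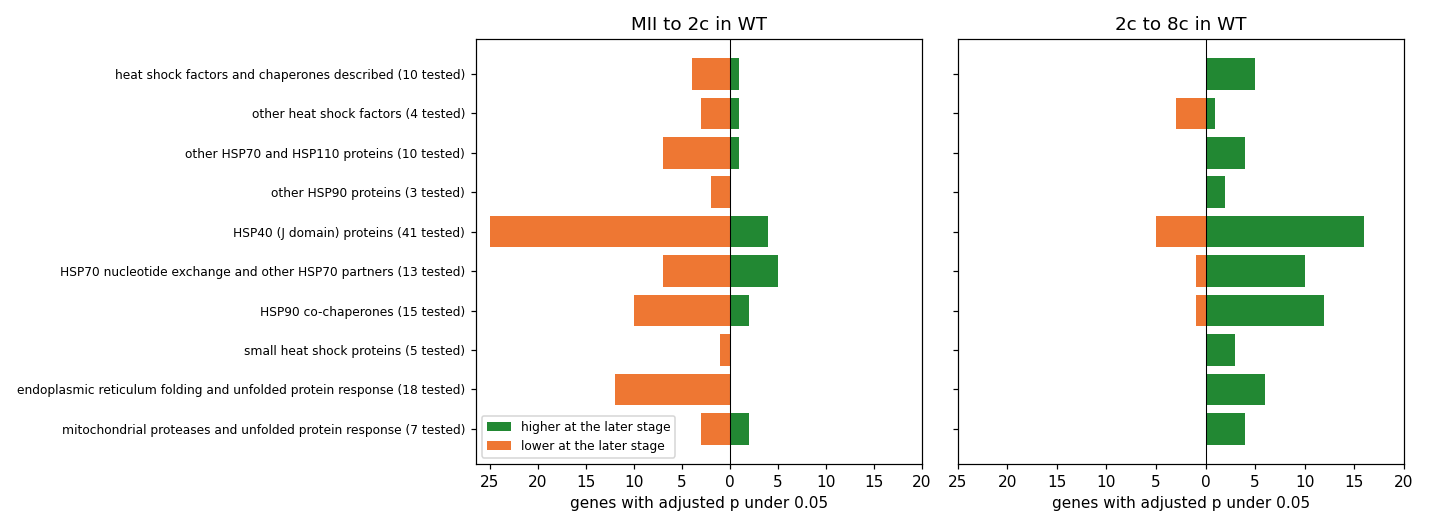
Number of genes of each chaperone list with an adjusted p under 0.05 between MII and 2c and between 2c and 8c in WT, on the horizontal axis, with higher levels at the later stage to the right and lower ones to the left. The heat shock factors and chaperones described here are in the top row, with 4 lower and 1 higher by 2c, then 5 higher by 8c.

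From 2c to 8c in WT, 12 of 15 HSP90 co-chaperones and 10 of 13 partners of HSP70 rose and 1 of each fell, where 31.9% of tested genes rose and 16.2% fell. Hsp90ab1, the constitutive cytosolic HSP90, rose by 4.05 (SE 0.35) in WT and 4.01 (SE 0.36) in matPlag1KO, and Cryab, a small heat shock protein, was at 0 counts in all 11 WT 2c embryos and at 25.3 ± 19.5 (SD, n = 15) CPM at 8c. In 8c embryos of matPlag1KO, Dnaja1 was among the genes that had risen most since 2c, by 4.00 (SE 0.40). Dnajb4 and Fkbp5 fell from 2c to 8c in both genotypes.

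Between genotypes, 0 of the 116 other chaperones were called at MII, 8 at 2c (2 higher, 6 lower) and 3 at 8c (1 higher, 2 lower). Of all tested genes 2.3% were called higher and 2.62% lower at 2c, and 1.21% and 0.527% at 8c. At both stages the share of the 116 called higher was below this background and the share called lower above it. These counts are small, and the shares were not tested against each other. In the 2c embryos labelled matPlag1KO, Fkbp5 (1.28) and Ppp5c (2.15), both HSP90 co-chaperones, were higher, and Dnajb14 (-1.81), Ppid (-1.62), Hspbp1 (-1.42), Sugt1 (-1.24), Dnajc17 (-1.19) and Dnaja1 (-1.17) were lower. Ppp5c and Dnaja1 were named after their values were seen. At 8c Hyou1, which works with Hspa5 in the endoplasmic reticulum, was higher (1.38, adjusted p = 0.00961), and Cdc37 (-1.36) and Fkbp4 (-1.30), HSP90 co-chaperones, were lower. Of the 18 genes of endoplasmic reticulum folding and the unfolded protein response, 0 were called at 2c, with a median log2 fold change of 0.17 against 0.12 for all tested genes, where Hspa5 was at -2.16. This list does not hold Dnajb14 and Dnajb9, J domain proteins of the endoplasmic reticulum. Dnajb14 was lower at 2c (adjusted p = 0.00178), and Dnajb9 was not called. For the genotype difference at 2c against 8c, 1 of the 116 was lower (Dnajb14, -2.32, adjusted p = 0.0056) and 1 higher (Ppp5c, 3.47). For the genotype difference at 2c against MII, in which Hspa5 was called lower, 1 of the 18 was also lower (P4hb, a protein disulfide isomerase, -1.95, adjusted p = 0.0285).

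The genes whose log2(CPM + 1) values were most like each gene over the 78 libraries are given as a description. For Hspa8 these included 1700016L04Rik (r = 0.961) and Rpl13 (0.945), the latter encoding a ribosomal protein. For Hsp90aa1 they were Sec62 (0.900), Med19 (0.898) and Psma7 (0.894). For Hsf2 they were Dffb (0.843), Nanog (0.819) and Abhd11os (0.816), and for Hsf1 Cep164 (0.842), Igsf3 (0.824) and Agap1 (0.822). Phb, which encodes a mitochondrial inner membrane protein, was among the 3 most alike for both Hspd1 (0.761) and Hspe1 (0.792). The highest values were lower for Hspa5 (Nxt1, 0.684) and Hspa2 (Gm11487, 0.580). Hspa1a and Hspa1b were too low for this measure.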

How the data were processed

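Each oocyte or embryo gave 1 library of transcript 5′ ends, made with unique molecular identifiers and with 92 ERCC spike-in RNAs added. The authors aligned reads to mm9 and counted them per gene (HOMER is named in the submitters' processing notes, with no version). The deposited values are raw counts per gene and spike-in in 90 libraries, without normalization, so reads of near-identical genes depend on the authors' mapping. Groups, plates (the library sets libA and libB) and wells were taken from the labels.

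Of 90 libraries, 12 were left out because their median CPM was under 1 (taken over genes that reached 1 CPM in 5 or more libraries). All 6 groups of the 78 kept libraries were fitted together in edgeR 4.0.16 (R 4.3.3), with the quasi-likelihood test and Benjamini-Hochberg adjustment over 16511 genes. Genotypes were compared with TMM factors and stages with spike-in totals as library sizes. CPM were taken on TMM library sizes, with 1 added before logarithms. Spike-in totals of kept libraries were 6645 to 15428 counts. Within groups, no library pair had a chi-square below 2.36 per degree of freedom, so none was a copy. Counting intervals cover counting error only. The edgeR fits of the genotypes at 2c (TMM) and of MII to 2c in WT (spike-in scale) were tested on simulated data. The other steps were not.

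The genes and lists were chosen with earlier results of these data known. All 10 genes are named, and of the other chaperones at most 5 per direction and comparison, with the largest called changes and at least 20 CPM in a group. Alternatives changed the test (DESeq2 1.42.0, or a likelihood ratio test in edgeR), which libraries and genes entered, the scaling, the plate, the groups in the fit, the threshold and a well block. The fits without 1 embryo, the fit of paired wells without the block and the check with plate means removed were added after seeing the data.

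Oocytes in the same well of plates A and B hold opposite genotypes. Their deviations from the group means over 8418 genes correlated with a lowest r of -0.0562 in 14 pairs (median 0.342). With the plate mean of each group removed as well, the lowest r was 0.148 and all 14 were above 0.1. That form was tried after the blocked calls had been seen. Judged by the lowest r, the pairing depends on that choice. In the first form 22 of 28 oocytes correlated best with their own well. The fit without the block remained the main one, as chosen from the lowest r of the first check, and both are given. Columns of sequence came from RefSeq (GRCm38.p6), and gene positions of the count table (mm9) were not mixed with them. Of the genes named by likeness, 1 is not reported here.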

Additional observations from a re-analysis of the deposited data

Results flagged for a closer look

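Of the 10 genes, 2 differed between stages in their genotype difference by the test of the difference itself, and no explanation was weighed. For Hspa5 the log2 difference of matPlag1KO against WT at 2c was lower than at MII by -3.40 (adjusted p = 3.27e-05) and lower than at 8c by -1.98 (adjusted p = 0.0434, but 0.103 with all libraries kept, 0.146 with spike-in scaling and 0.0546 with median-ratio scaling). For Hspe1 it was higher at 2c than at 8c by 1.77 (adjusted p = 0.0182). The 2c embryos are shared by all 3 comparisons, and their Plag1 counts were in the opposite order to those of the oocytes. By the design the only intact Plag1 allele of the embryos labelled matPlag1KO is the WT paternal one. Its part in those counts was not tested.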

How the results depend on the processing

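Fold changes under the alternatives were compared for the genes and comparisons called in any fit. Of these, 576 kept their side of the threshold and, where called, their direction, 51 lost the call, 29 gained it and 8 turned. The many fits without 1 embryo, which are nearly alike, are included and raise the number that kept it. The cause was not tested. Hspa8 from MII to 2c turned in WT to 1.55 with TMM, 1.59 with median-ratio scaling and 2.66 on plate B alone, and in matPlag1KO to 0.79 and 1.05 with TMM and median-ratio scaling. Hsf1 turned from 2c to 8c in WT (-0.85 and -0.96) and from MII to 2c in matPlag1KO (0.13 with median-ratio scaling). Counts of called genes among the 10 moved as follows. At MII, 0 became 1 on plate B alone and 2 with the well as a replicate block. At 2c, 2 became 4 with DESeq2, 1 with spike-in scaling, 0 on plate A alone and 1 at an adjusted p under 0.01. At 8c, 2 became 0 with spike-in scaling, on either plate alone and at an adjusted p under 0.01, 1 with median-ratio scaling, and 1 to 2 when each embryo was left out in turn. Hspe1 was the gene lost, in 15 of 26 such fits, with the highest adjusted p (0.0842) without the WT embryo in well F4 of plate A. From 2c to 8c in matPlag1KO, 8 became 5 on plate A alone. For the genotype difference at 2c against 8c, 2 became 1 with all libraries, spike-in scaling or median-ratio scaling, Hspa5 being the gene lost, 0 at an adjusted p under 0.01, and 3 with DESeq2, which added Hsf1 (1.74, adjusted p = 0.0353).

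The check of pairing by well was made first on deviations from group means. Its lowest r was -0.0562 over 14 pairs, by which the wells were taken not to pair. Its median r was 0.342, however, and 22 of 28 oocytes correlated best with their own well. The block called 639 genes higher and 153 lower, against 15 and 19 without it in the same oocytes. After these calls had been seen, the check was repeated with plate means removed (lowest r 0.148). The blocked calls of Hspa8 and Hspa5 rest on taking the wells as pairs. At 2c and 8c the lowest r was -0.128 and 0.00316, and no block was fitted. Over all genes, calls at 2c were 379 higher and 433 lower, but 721 and 273 with median-ratio scaling, 734 and 401 with DESeq2, 191 and 94 with spike-in scaling, 0 and 0 on plate A and 150 and 352 on plate B. At MII, 51 and 78 became 367 and 96 on plate B alone, and at 8c 200 and 87 became 91 and 15 with spike-in scaling and 4 and 2 and 38 and 8 on plates A and B. Depth limits Hspa1a, Hspa1b and, before 8c, Hsf2, where a few counts per group set each value.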
